A study of Homo sapiens with 18 samples.

Results

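The cytotoxic granule genes described here are 5 granzymes (GZMA, GZMB, GZMH, GZMK and GZMM), the pore former PRF1, the lytic peptide GNLY, the granule membrane protein NKG7, the proteoglycan SRGN and the cysteine protease CTSW. They were taken by NCBI Gene ID from the gene tables, which makes 10 members of 21662 gene IDs that appear in any file. Of these members, 9 were listed in all 18 libraries and GZMK in 16 of them, and a gene missing from a table was taken as 0. The RNA came from 3 wild-type lines of NK/T cell lymphoma. SNK-10 and the SNT lines, SNT-8 and SNT-16, were each given DMSO, the solvent control, or icaritin, a prenylated flavonoid derived from plants of the genus Epimedium, for 12 h. There were 3 libraries in each of the 6 groups, and nothing in the labels says that they came from separate cultures, so a p-value here reflects the spread among the libraries alone, which may be technical. The dose of icaritin is not given in the sources used here.

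Cytotoxic lymphocytes kill a target cell by releasing the content of preformed granules into the contact between both cells. Perforin, the product of PRF1, opens the target membrane, and granzymes, which are serine proteases stored with it, enter and cleave proteins in the target. Serglycin, the product of SRGN, packs the positively charged granzymes on its sulfated sugar chains, and granzyme B and perforin are markers used in the diagnosis of NK/T cell lymphoma.

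The stretches of 250 bases just before the annotated start of 4 members are shown because these genes took different courses in the data below. GZMA and PRF1 were lower after icaritin, GZMB was not, and GNLY was near 0 outside SNK-10. They are RefSeq sequences of GRCh38.p14, read 5′ to 3′ on the strand of the gene, and 6 of the 10 members (GZMA, GZMB, GZMH, PRF1, GNLY and NKG7) had an entry. Capitals mark matches, on either strand, to the RUNX core TGTGGT, which reads ACCACA on the other strand, the AP-1 motif TGANTCA, the CRE core TGACGT, which reads ACGTCA on the other strand, and the ETS core GGAAGT. GZMA lies on the plus strand with the window at chr5:55102396-55102645. The GZMB window is chr14:24634191-24634440 on the minus strand, the PRF1 window is chr10:70602742-70602991 on the minus strand, and the GNLY window is chr2:85694108-85694357 on the plus strand.
GZMA: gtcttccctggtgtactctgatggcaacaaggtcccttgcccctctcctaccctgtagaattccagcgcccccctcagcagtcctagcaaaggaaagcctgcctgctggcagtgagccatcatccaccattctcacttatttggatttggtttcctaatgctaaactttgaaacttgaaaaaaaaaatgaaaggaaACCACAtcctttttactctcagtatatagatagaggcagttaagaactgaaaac
GZMB: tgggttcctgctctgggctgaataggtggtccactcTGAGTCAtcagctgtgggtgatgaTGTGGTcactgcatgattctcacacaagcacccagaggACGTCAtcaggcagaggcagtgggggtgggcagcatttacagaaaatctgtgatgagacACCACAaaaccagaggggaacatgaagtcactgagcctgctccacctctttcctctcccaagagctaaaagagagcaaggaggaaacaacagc
PRF1: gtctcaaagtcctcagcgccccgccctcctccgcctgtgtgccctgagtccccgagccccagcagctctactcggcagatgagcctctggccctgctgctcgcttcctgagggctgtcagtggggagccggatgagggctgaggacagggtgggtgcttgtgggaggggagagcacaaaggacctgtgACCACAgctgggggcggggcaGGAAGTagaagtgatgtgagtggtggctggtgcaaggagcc
GNLY: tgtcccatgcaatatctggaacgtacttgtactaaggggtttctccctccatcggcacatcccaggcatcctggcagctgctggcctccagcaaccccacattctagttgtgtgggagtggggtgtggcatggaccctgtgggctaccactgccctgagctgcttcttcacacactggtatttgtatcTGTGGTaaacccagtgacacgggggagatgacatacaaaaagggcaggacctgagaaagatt
The RUNX core stood in 4 of the 6 windows, against 11% of 35116 windows of the same length before annotated starts. In GZMA it lay at bases -54 to -49, counted from the start, in PRF1 and in GNLY at -62 to -57, and in GZMB at both -190 to -185 and -93 to -88. GZMB alone of the 6 held the AP-1 motif (6.6% of all windows) and the CRE core (7.1%), and PRF1 alone held the ETS core (19.5%). The T-box motif GGTGTGA (2.8% of all windows) and the STAT motif TTCNNNGAA (6.6%) had no match in the 6 windows. A match to these letters is a description of the sequence, and binding was not measured.

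Expected counts, the authors' estimated fragments per gene, summed to between 9526431 and 10100453 per library, and the 10 members took 0.244% to 0.370% of them. Levels are given in FPKM, fragments per unit of transcript length, scaled to the assigned fragments of the library, so that genes of different length can be compared. RNR2, the mitochondrial large ribosomal RNA, took 0.83% to 1.55% of counts with DMSO and 1.65% to 5.12% with icaritin. Replicates differed by more than sampling noise in each pair, and the icaritin libraries of SNT-8 were the least alike, with a chi-square per gene of 3.07 to 8.18 against 1.37 to 4.13 in the other groups. Of 16 T cell markers, 10 were listed, and CD3E, CD2 and CD247 were expressed in all lines, while CD4, CD8A, CD8B and CD5 had mean FPKM of at most 0.277 with DMSO. CD3D was 153 FPKM in SNT-8 and 137 FPKM in SNT-16, but 18 FPKM in SNK-10. SNK-10 instead held the adaptors FCER1G, at 230.0 FPKM, and TYROBP, at 43.8 FPKM, whose means were at most 1.2 FPKM with DMSO in the other lines, and KLRK1 and FCGR3A were also highest there (21.8 and 8.12 FPKM). Other NK cell markers were mixed. NCAM1 was lower in SNK-10 than in SNT-8 and SNT-16, at 3.1 FPKM against 11 and 7.62. So were KLRD1, at 4.93 against 9.69 and 9.24, and KLRC1, at 6.89 against 14.7 and 9.58. NCR1 had a lower mean, 8.34 against 10.5 and 9.66, with overlapping libraries. NCR3 lay between the SNT lines, at 6.18 against 10.1 and 5.16. KIR2DL4 was higher, at 1.61 against 0.577 and 0.587, and KLRF1 had means of at most 0.04 FPKM. Summed FPKM of 5 B cell markers was at most 2.11 and of 4 listed mast cell markers at most 0.75 in any library, and that of 7 myeloid markers was 12.2 to 18.8.

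With DMSO alone, granzyme B was the most abundant granule transcript per length in every line, and SNK-10 differed from both SNT lines in nearly all members. SNK-10 held less GZMB, GZMH, PRF1 and NKG7 and more GZMA, GZMK, GNLY, SRGN and CTSW than either SNT line. All 10 members differed between SNK-10 and SNT-8 (6 higher and 4 lower in SNK-10), where 57.6% of the 14396 genes tested passed the same threshold, 29.9% higher and 27.8% lower. Between SNK-10 and SNT-16, 9 of 10 differed (5 higher and 4 lower), against 57.8% of all genes, 30.1% higher and 27.7% lower. SNT-16 and SNT-8 differed in 6 of 10 (3 higher and 3 lower in SNT-16), against 13.2% of all genes, 5.89% higher and 7.34% lower. Of the genes called between the SNT lines, 44.5% were higher in SNT-16, and 64.5% were with scaling by library totals only. The threshold was an adjusted p of 0.05 in edgeR's quasi-likelihood test with Benjamini-Hochberg adjustment over all genes tested.

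**Figure D1:**
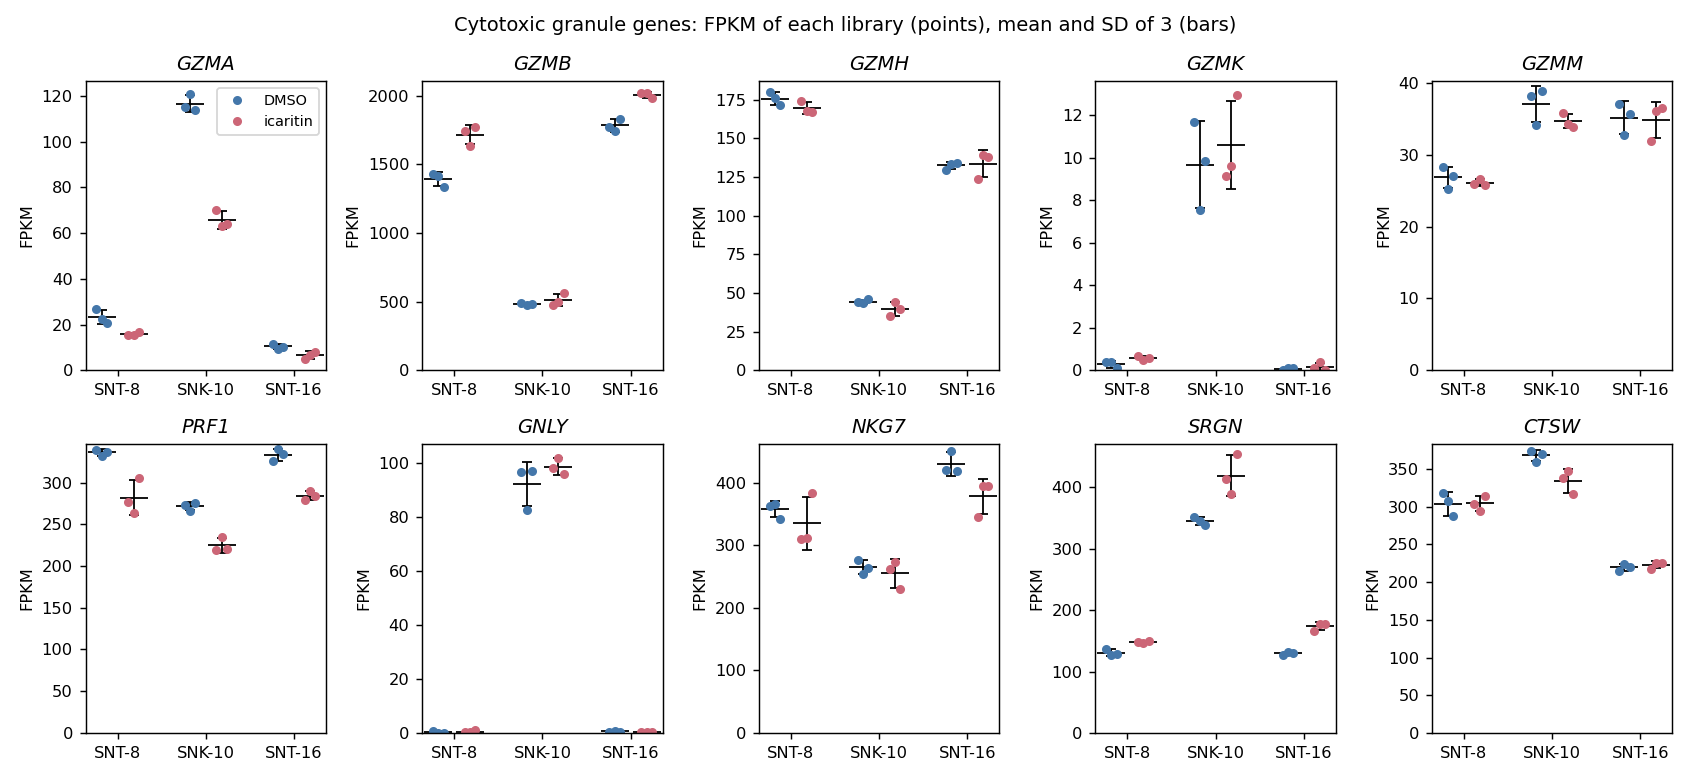
FPKM of the 10 granule genes in each of 18 libraries, with 1 panel a gene, the 3 lines on the horizontal axis, points for single libraries, and the mean and SD of 3 libraries as bars. GZMB is highest in the SNT lines, at 1334 to 2024 FPKM, and GNLY and GZMK stand near 0 there and rise above it in SNK-10.

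GZMB (NCBI Gene ID 3002), which cuts after aspartate and activates caspases in the target cell, had 1429, 1414 and 1334 FPKM in the 3 DMSO libraries of SNT-8. In SNT-16 it had 1774, 1743 and 1835 FPKM, and in SNK-10 490.5, 477 and 480.3 FPKM. No library of SNK-10 came near the others, and GZMB ranked 27 of 14396 genes by mean FPKM in SNT-8, 20 in SNT-16 and 132 in SNK-10. Its log2 difference was -1.52 ± 0.05 (SE; adjusted p = 1.04e-25) between SNK-10 and SNT-8 and -1.83 ± 0.05 (adjusted p = 2.47e-28) between SNK-10 and SNT-16. SNT-16 exceeded SNT-8 by 0.31 ± 0.05 (adjusted p = 1.47e-05), with no overlap of libraries.

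GZMH (2999), the close relative of GZMB next to it in the genome, had 171.5 to 179.7 FPKM in SNT-8, 129.8 to 134 FPKM in SNT-16 and 43.5 to 45.9 FPKM in SNK-10. Thus GZMH was highest in SNT-8, where GZMB was highest in SNT-16, and its log2 difference between SNT-16 and SNT-8 was -0.45 ± 0.06 (adjusted p = 1.11e-07). The reference transcripts of both genes share 77.3% of 896 aligned bases, and 9.9% of the 31-base words of GZMB occur in GZMH. Their expected counts were fractional in all 18 libraries, as happens where fragments are divided between genes, so the split between them is uncertain.

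GZMA (3001), which cuts after arginine or lysine, took the opposite course across lines. It had 115, 121 and 114 FPKM in the DMSO libraries of SNK-10, 26.9, 22.2 and 20.8 FPKM in SNT-8, and 11.65, 9.39 and 10.2 FPKM in SNT-16. SNK-10 exceeded SNT-8 by a log2 difference of 2.33 ± 0.08 (adjusted p = 3.68e-25) and SNT-16 by 3.54 ± 0.10 (adjusted p = 3.63e-29), and SNT-16 stood below SNT-8 (-1.21 ± 0.12, adjusted p = 5.72e-10).

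GZMK (3003), another protease that cuts after basic residues, was a low transcript throughout. It had 11.65, 7.53 and 9.83 FPKM in SNK-10, from 297 fragments in all, against 9 fragments in the 3 SNT-8 libraries and 2 in those of SNT-16. The ratio of counts scaled by library size between SNK-10 and SNT-8 was 34.5 (exact 95% interval 17.9 to 76.1, counting error only). Against SNT-16 the ratio was 156 with an interval from 42.9 to 1300.

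GNLY (10578) encodes granulysin, a peptide that disrupts membranes of microbes and tumour cells. It had 96.4, 82.6 and 96.8 FPKM in the DMSO libraries of SNK-10. All 3 SNT-8 libraries together held 8 GNLY fragments, and those of SNT-16 held 13. The ratio of scaled counts was 301 (exact 95% interval 153 to 699, counting error only) between SNK-10 and SNT-8 and 187 (109 to 352) between SNK-10 and SNT-16. Of the 8 fragments in SNT-8, 6 were in DMSO replicate 1, and the fitted log2 difference from SNK-10 was 8.17 with that library and 9.48 without it.

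GZMM (3004), a protease that cuts after methionine or leucine, varied little by comparison. It had 25.3 to 28.3 FPKM in SNT-8, 34.2 to 38.8 FPKM in SNK-10 and 32.7 to 37.1 FPKM in SNT-16. SNK-10 and SNT-16 each exceeded SNT-8 (0.48 ± 0.08, adjusted p = 3.43e-06, and 0.34 ± 0.08, adjusted p = 0.00308). Between SNK-10 and SNT-16 the log2 difference was 0.13 with a 95% interval of -0.02 to 0.29, and the libraries overlapped.

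PRF1 (5551) was the steadiest of the major granule transcripts between lines. It had 332 to 339.6 FPKM in SNT-8, 326 to 339.8 FPKM in SNT-16 and 266 to 276 FPKM in SNK-10. The SNT lines differed by -0.06 on the log2 scale (95% interval -0.14 to 0.03), and SNK-10 stood below both, by -0.30 ± 0.04 (adjusted p = 2.32e-07) against SNT-8 and -0.24 ± 0.04 (adjusted p = 1.18e-05) against SNT-16.

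NKG7 (4818), a membrane protein of the granules that takes part in their exocytosis, had 343 to 366 FPKM in SNT-8, 419 to 451 FPKM in SNT-16 and 254 to 276 FPKM in SNK-10. SNK-10 was below SNT-8 by -0.42 ± 0.07 (adjusted p = 2.71e-05) and below SNT-16 by -0.64 ± 0.07 (adjusted p = 6.38e-08). The difference between SNT-16 and SNT-8, 0.22 ± 0.07 (adjusted p = 0.0385), was past the threshold with all 6 libraries, but not after leaving out any 1 of them (0.185 to 0.24, adjusted p 0.0618 to 0.153).

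SRGN (5552) and CTSW (1521) were the other members that were highest in SNK-10. SRGN had 351, 345 and 339 FPKM in SNK-10 against 126.6 to 137 FPKM in SNT-8 and 127 to 131.5 FPKM in SNT-16, a log2 difference of 1.38 ± 0.05 (adjusted p = 5.63e-24) and 1.43 ± 0.05 (adjusted p = 2.04e-24). SRGN did not separate the SNT lines (-0.04, 95% interval -0.15 to 0.06). CTSW, also called lymphopain, had 359.9 to 374 FPKM in SNK-10, 287 to 318 FPKM in SNT-8 and 215 to 224 FPKM in SNT-16, and no line overlapped another. All 3 pairs differed for CTSW, with SNK-10 above SNT-16 by 0.80 ± 0.04 (adjusted p = 6.2e-19). Counts of SRGN were fractional in every library, and CTSW overlaps FIBP (mean CPM of 62.7) in the annotation. Whether the counting used strand is not given in the sources used here.

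By mean FPKM with DMSO, the order in SNT-8 was GZMB, NKG7, PRF1, CTSW, GZMH, SRGN, GZMM, GZMA, GNLY and GZMK. Neighbours in this order were separated by their library ranges, other than GZMM and GZMA and the 2 lowest members, GNLY and GZMK. SNT-16 had the same order, in which GZMH at 132.4 ± 2.38 FPKM (SD, n = 3) and SRGN at 129.8 ± 2.38 FPKM were the one pair of neighbours that overlapped. In SNK-10 the order was GZMB, CTSW, SRGN, PRF1, NKG7, GZMA, GNLY, GZMH, GZMM and GZMK, and only PRF1 and NKG7 overlapped. The ratio of GZMB to PRF1 was therefore 1.78 ± 0.031 (SD, n = 3) in SNK-10, against 4.14 ± 0.161 in SNT-8 and 5.36 ± 0.196 in SNT-16.

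GZMA and PRF1 fell with icaritin in all 3 lines. GZMB and SRGN were higher with icaritin in all 3 lines, with calls that differed in how well they held, and GZMM, GZMK and GNLY passed the threshold in none. In SNT-8, 4 of 10 members passed (GZMB and SRGN higher, GZMA and PRF1 lower), where 49.0% of all genes tested did, 24.0% higher and 25.0% lower. In SNK-10, 5 of 10 passed (GZMB and SRGN higher, GZMA, PRF1 and CTSW lower), against 48.4% of all genes, 24.4% higher and 24.0% lower. In SNT-16, 5 of 10 passed (GZMB and SRGN higher, GZMA, PRF1 and NKG7 lower), against 42.0% of all genes, 21.2% higher and 20.8% lower. On the mean of the lines 6 of 10 passed (2 higher and 4 lower), against 61.7% of all genes, 31.7% higher and 30.0% lower. The members' shares were near those of all genes tested, which include many genes of low count. Of the 9331 genes with a mean of at least 10 CPM, fitted alone, a larger share passed. These were 6081 in SNT-8, 6018 in SNK-10 and 5481 in SNT-16, and of the members only GZMK is below that level. The median log2 fold change of the members was -0.07, -0.04 and -0.03 in SNT-8, SNK-10 and SNT-16, beside 0.02, 0.01 and 0.02 over all genes. In bulk RNA, fewer cells of a kind and less RNA per cell cannot be told apart.

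**Figure D2:**
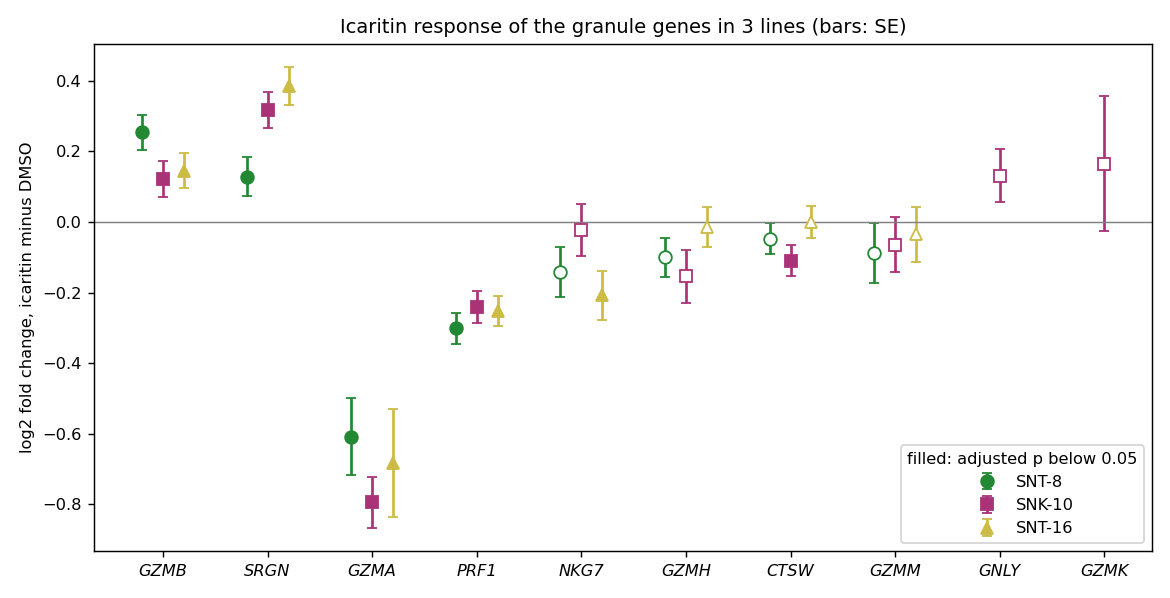
Log2 fold change from DMSO to icaritin (vertical axis) of the 10 granule genes (horizontal axis) in the 3 lines, with the SE as bars and filled symbols where the adjusted p is below 0.05. GZMA sits at -0.61 to -0.79 and PRF1 at -0.24 to -0.30 in each line. GZMK and GNLY are drawn for SNK-10 only. Their SNT groups, which are left out of the figure, held 2 to 18 fragments each.

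GZMA fell in each line, by more on the log2 scale than any other called member. In SNT-8 the 3 icaritin libraries had 15.2, 15.6 and 16.5 FPKM against 20.8 to 26.9 FPKM with DMSO. In SNK-10 they had 70.1, 63.2 and 63.9 FPKM against 114 to 121 FPKM, and in SNT-16 4.83, 6.83 and 8.06 FPKM against 9.39 to 11.65 FPKM. No icaritin library reached a DMSO library in any line. The log2 fold change was -0.61 ± 0.11 (SE; adjusted p = 1.1e-05) in SNT-8, -0.79 ± 0.07 (adjusted p = 7.07e-12) in SNK-10 and -0.68 ± 0.15 (adjusted p = 0.000327) in SNT-16. Scaled counts of GZMA thus changed by -34.4%, -42.3% and -37.7%, and the test of a difference in response between lines gave an adjusted p of 0.586. Each of these 3 calls kept its direction and its side of the threshold in all 17 alternatives run for it.

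PRF1 fell less, and by a like amount in each line. Its FPKM with icaritin was 277, 264 and 306 in SNT-8 (332 to 339.6 with DMSO), 219.8, 235 and 219.9 in SNK-10 (266 to 276) and 279, 289.95 and 284 in SNT-16 (326 to 339.8). The groups did not overlap in any line. The log2 fold change was -0.30 ± 0.04 (adjusted p = 2.74e-07) in SNT-8, -0.24 ± 0.04 (adjusted p = 1.76e-05) in SNK-10 and -0.25 ± 0.04 (adjusted p = 8.43e-06) in SNT-16, and scaled counts changed by -18.8%, -15.4% and -16.1%. The responses had 95% intervals of -0.39 to -0.22, -0.33 to -0.15 and -0.34 to -0.17, and the test between lines gave an adjusted p of 0.761. As for GZMA, all 17 alternatives in each line kept these calls.

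GZMB rose where PRF1 fell. In SNT-8 its FPKM with icaritin was 1744, 1636 and 1771, above all DMSO libraries, and the log2 fold change was 0.25 ± 0.05 (adjusted p = 4.19e-05), which held in all 17 alternatives. In SNT-16 it was 2024, 2017 and 1983 FPKM, again above all DMSO libraries, with a log2 fold change of 0.15 ± 0.05 (adjusted p = 0.0153). That call was lost without DMSO replicate 2 (0.13), without icaritin replicate 2 (0.125) and without icaritin replicate 3 (0.137), and the adjusted p over all 17 alternatives ran from 5.43e-05 to 0.0808. In SNK-10 the icaritin libraries had 477, 501 and 562 FPKM and overlapped the DMSO libraries. Its log2 fold change there, 0.12 ± 0.05 (adjusted p = 0.0482), was lost in 9 of 17 alternatives (adjusted p 0.00573 to 0.643 over the 17). It was 0.0282 without icaritin replicate 3, and lay at 0.138, 0.11 and 0.117, past the threshold in no case, without DMSO replicates 1, 2 and 3. On the mean of the lines GZMB rose by 0.17 ± 0.03 (adjusted p = 1.9e-06), which held in all 28 alternatives run for that mean. The test of a difference in response between lines gave an adjusted p of 0.353 for GZMB. That difference passed the threshold in 2 of 28 alternatives, by library totals (adjusted p = 0.0416) and without icaritin replicate 3 of SNK-10 (adjusted p = 0.0181).

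SRGN was the member whose response differed between lines, by the test with the threshold used here (adjusted p = 0.0419, where 14.3% of all genes passed and 1 of 10 members did). In SNT-16 its FPKM with icaritin was 166, 177 and 178 against 127 to 131.5 with DMSO, a log2 fold change of 0.39 ± 0.05 (adjusted p = 2.04e-07). In SNK-10 it was 414, 389 and 454 FPKM against 339 to 351, a log2 fold change of 0.32 ± 0.05 (adjusted p = 1.5e-06). Both rises held in all 17 alternatives. In SNT-8 it was 148, 145.7 and 149 FPKM against 126.6 to 137, with no overlap and a log2 fold change of 0.13 ± 0.05 (adjusted p = 0.0492). The SNT-8 call was lost in 11 of 17 alternatives (0.104 to 0.164 when 1 library was left out, past the threshold only without DMSO replicate 1). The difference between lines was lost in 14 of 28 alternatives, among them 12 of the 18 that left out 1 library (adjusted p 0.0124 to 0.148 over those 18). Taken by pairs of lines in the same edgeR fit, the SRGN response separated no pair. The adjusted p was 0.101 for SNK-10 against SNT-8, 0.112 for SNT-16 against SNT-8 and 0.641 for SNK-10 against SNT-16. Both pairs with SNT-8 passed with no filter on low counts (0.0456 and 0.0457). SNK-10 against SNT-8 also passed without icaritin replicate 2 of SNK-10 (0.019).

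NKG7 fell in SNT-16, from 419 to 451 FPKM with DMSO to 346, 394 and 394 FPKM with icaritin (-0.21 ± 0.07, adjusted p = 0.0198). That call was lost in 5 of 17 alternatives (adjusted p 2.98e-05 to 0.109 over the 17). Among them were library totals (adjusted p = 0.0755) and limma at pseudocounts of 1 and 0.1 (0.0641 and 0.0635). The others were without icaritin replicate 1, the lowest icaritin library (-0.137), and without DMSO replicate 2 (-0.171). In SNT-8 the icaritin libraries had 309.5, 312 and 383 FPKM, and the third lay above all DMSO libraries. The log2 fold change was -0.14 ± 0.07 (adjusted p = 0.105) with it and -0.238 ± 0.0596 (adjusted p = 0.00106) without it, where the 17 alternatives gave adjusted p of 0.00106 to 0.365. SNK-10 had a log2 fold change of -0.02, with a 95% interval of -0.16 to 0.12.

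CTSW was lower with icaritin in SNK-10, at 338, 347 and 317 FPKM against 359.9 to 374 (-0.11 ± 0.04, adjusted p = 0.0353). This call was lost in 7 of 17 alternatives, with -0.0938 and -0.106 without DMSO replicates 1 and 3 and -0.11 and -0.0927 without icaritin replicates 1 and 3. In SNT-8 and SNT-16 the log2 fold changes were -0.05 and 0.00, with 95% intervals of -0.13 to 0.04 and -0.09 to 0.09. GZMH passed the threshold in no single line (-0.10, -0.15 and -0.01 in SNT-8, SNK-10 and SNT-16). In SNK-10 (adjusted p = 0.0841) it did pass in 4 of 17 alternatives. These were library totals (adjusted p = 0.027), limma at pseudocounts of 1 and 0.1 (0.0313 and 0.0309), and without icaritin replicate 2 (0.0386). On the mean of the lines GZMH was lower by -0.09 ± 0.04 (adjusted p = 0.0298), a call lost in 8 of 28 alternatives. GZMM had log2 fold changes of -0.09, -0.06 and -0.04, with 95% intervals that reached from -0.26 to 0.12 at their widest, and its libraries overlapped in every line.

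GNLY and GZMK, both low outside SNK-10, did not pass the threshold there. GNLY had 97.8, 101.9 and 95.8 FPKM with icaritin against 82.6 to 96.8 with DMSO, a log2 fold change of 0.13 (95% interval -0.02 to 0.28, adjusted p = 0.15). GZMK had 9.15, 9.62 and 12.95 FPKM with icaritin, inside the range of 7.53 to 11.65 FPKM for 2 of 3 libraries (0.16, 95% interval -0.21 to 0.54, adjusted p = 0.509). In the SNT lines, summed counts of GNLY went from 8 to 12 in SNT-8 and from 13 to 10 in SNT-16, and those of GZMK from 9 to 18 and from 2 to 5. A change in these was not detectable at this depth.

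Summed FPKM of the 10 listed T cell markers was lower with icaritin in each line, at 592 to 633 against 768 to 795 in SNT-8, 404 to 416 against 457 to 464 in SNK-10 and 616 to 648 against 754 to 774 in SNT-16. CD2, CD3D and CD3E make up most of this sum. Mean FPKM of CD247 was instead higher with icaritin (78.6 against 68.1 in SNT-8, 83.3 against 65.5 in SNK-10 and 73.5 against 63.8 in SNT-16), as was that of CD7 (14.1 against 10.3, 16.2 against 13.2 and 6.37 against 4.68). The summed FPKM of 11 NK cell markers ranged from 56.6 to 64.8 against 60.8 to 64.9 in SNT-8. It was 347 to 349 against 328 to 341 in SNK-10 and 45.2 to 48.4 against 43.9 to 48.2 in SNT-16. FCER1G made up most of the SNK-10 sum, with a mean of 248 against 230. Means of KLRK1, KLRC1, KLRD1 and NCAM1 were also higher there, while those of TYROBP (40.8 against 43.8), NCR1, FCGR3A, NCR3 and KIR2DL4 were lower. In both SNT lines, means of NCAM1 and KLRC1 were higher and those of KLRK1, KLRD1 and NCR3 lower. The part of these and of the RNR2 share in the responses was not tested beyond leaving RNR2 out, which kept the calls of GZMA, PRF1 and GZMB in each line and ended that of SRGN in SNT-8 (0.126, adjusted p = 0.0521).

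With GZMB higher and PRF1 and GZMA lower, the make-up of the granule transcripts shifted in the same direction in each line. The ratio of GZMB to PRF1 FPKM went from 4.14 ± 0.161 to 6.10 ± 0.267 (SD, n = 3) in SNT-8, from 1.78 ± 0.031 to 2.28 ± 0.235 in SNK-10 and from 5.36 ± 0.196 to 7.06 ± 0.169 in SNT-16. Every icaritin library exceeded every DMSO library of its line in this ratio. The ratio of GZMB to GZMA went from 60.4 ± 6.24 to 109 ± 5.13 in SNT-8, from 4.14 ± 0.168 to 7.84 ± 1.0 in SNK-10 and from 173 ± 17.9 to 320 ± 89.1 in SNT-16. These ratios combine the member responses given above and were not tested separately.

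GZMB made up 86.0% ± 0.266 of the summed FPKM of the 5 granzymes in SNT-8 with DMSO and 89.0% ± 0.397 with icaritin. It went from 69.9% ± 0.213 to 77.2% ± 1.47 in SNK-10 and from 90.9% ± 0.113 to 92.0% ± 0.594 in SNT-16. The share of GZMA went from 16.9% ± 0.683 to 9.95% ± 1.13 in SNK-10, and was at most 1.62% in any SNT library. Summed granzyme FPKM was 1618 ± 58.1 with DMSO and 1929 ± 72.3 with icaritin in SNT-8 and 1962 ± 48.9 and 2183 ± 17.4 in SNT-16. In SNK-10 the sums overlapped, at 690.4 ± 8.12 and 663.7 ± 44.1. SRGN, the carrier of these proteases, went from 0.389 to 0.525 times the FPKM of PRF1 in SNT-8, from 1.27 to 1.87 times in SNK-10 and from 0.39 to 0.611 times in SNT-16.

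**Figure D3:**
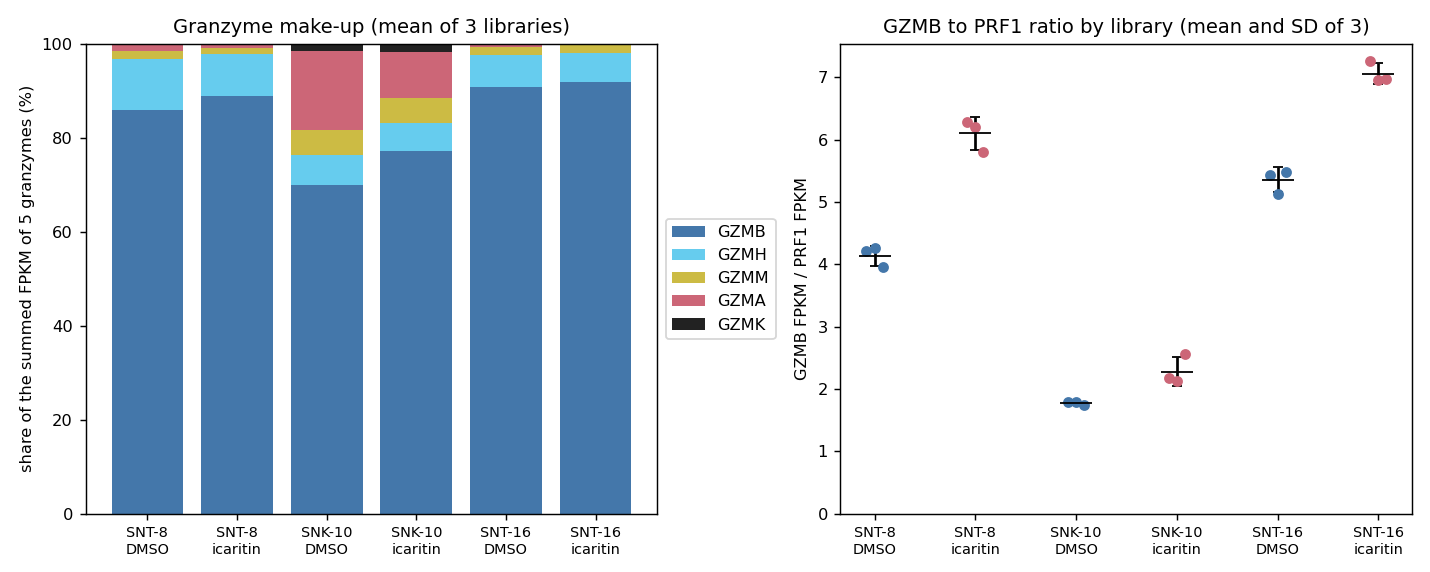
Left, the share of each granzyme in the summed FPKM of 5 granzymes (vertical axis, percent, mean of 3 libraries) in the 6 groups, and right, the ratio of GZMB to PRF1 FPKM for each library (points) with the mean and SD of 3. GZMA is visible mainly in SNK-10, where it goes from 16.9% to 9.95%, and the ratio is higher with icaritin in all lines.

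Genes that act around the granule proteins were read from lists of pathway genes, beside all genes tested, of which 24.0%, 24.4% and 21.2% rose and 25.0%, 24.0% and 20.8% fell in SNT-8, SNK-10 and SNT-16. A list of 7 proteases read for granzyme and perforin processing had 5 tested genes, without CTSH and CTSL. What these proteases do to granule proteins in these lines was not measured. Of the 5 tested, 4 rose and 1 fell in each line. Their median log2 fold change was 0.34, 0.51 and 0.28 in SNT-8, SNK-10 and SNT-16. The member that fell was CTSC, the dipeptidyl peptidase that removes the activation dipeptide of progranzymes (-0.57 ± 0.05, -0.14 ± 0.05 and -0.38 ± 0.05). CTSD (0.34, 0.62 and 0.53), CTSB (0.41, 0.57 and 0.19), FURIN (0.29, 0.51 and 0.28) and LGMN (0.38, 0.37 and 0.45) rose in each line. The call of LGMN in SNT-8 (adjusted p = 0.0363) was lost in 7 of 17 alternatives, among them without DMSO replicates 2 and 3 and icaritin replicates 1 and 3 (0.247 without the last, adjusted p = 0.234). That of CTSB in SNT-16 was lost in 4 of 17, among them without DMSO replicate 3 and icaritin replicates 1 and 3 (0.151 to 0.166), and that of CTSC in SNK-10 without icaritin replicate 1 or 2 (-0.126 in both cases). Among 7 tested inhibitors, 3 rose and 1 fell in SNT-8 and in SNK-10, and 1 rose and 2 fell in SNT-16, with medians of 0.16, 0.11 and -0.18. CST7, cystatin F, an inhibitor of CTSC in granules, rose by 0.70 ± 0.05, 0.79 ± 0.06 and 0.56 ± 0.05. SERPINB9, the cell's own inhibitor of granzyme B, rose in SNT-8 (0.35 ± 0.06, adjusted p = 2.63e-06) and SNK-10 (0.33 ± 0.075, adjusted p = 0.000284) and fell in SNT-16 (-0.18 ± 0.06, adjusted p = 0.0153). That fall was lost with limma at both pseudocounts and without DMSO replicate 2 of SNT-16 (-0.133, adjusted p = 0.119). SERPINB8 fell in each line, SERPINB1 rose in SNT-8 and SNK-10, and CSTB passed in none. The SERPINB8 call in SNT-16 was lost without DMSO replicate 3 (-0.202) or icaritin replicate 1 (-0.205). That of SERPINB1 was lost in SNT-8 without DMSO replicate 2 (0.139) or icaritin replicate 1 (0.121), and in SNK-10 in 4 of 17 alternatives, 3 of them without DMSO replicate 1 or icaritin replicates 2 and 3.

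Of 30 genes for granule formation, transport and release, 11 rose and 10 fell in SNT-8, 13 rose and 5 fell in SNK-10, and 12 rose and 7 fell in SNT-16, with medians of 0.08, 0.10 and 0.08, where all genes had 24.0% higher and 25.0% lower in SNT-8, 24.4% and 24.0% in SNK-10, and 21.2% and 20.8% in SNT-16. SYTL1 (1.93, 1.22 and 1.5) and SYTL3 (0.91, 0.79 and 0.86), which bind RAB27 on secretory vesicles, IGF2R (0.76, 0.75 and 0.69), a mannose 6-phosphate receptor that sorts granzymes, and LAMP1 (0.39, 0.59 and 0.48) rose in each line. WAS, a regulator of actin at the contact between cells, fell in each line (-0.42, -0.32 and -0.53). RAB27A itself, which docks the granules, rose in SNK-10 (0.14) and SNT-16 (0.20) and had 0.08 (adjusted p = 0.15) in SNT-8. Its call in SNK-10 was lost in 4 of 17 alternatives, among them without DMSO replicate 3 (0.125), icaritin replicate 1 (0.127) and icaritin replicate 3 (0.095). Of 12 tested enzymes that build the chondroitin sulfate chains of serglycin, 4 rose in each line and 6, 5 and 4 fell, with CSGALNACT2 (0.51, 0.56 and 0.50), CHSY1 (0.32, 0.30 and 0.35) and CHST11 (0.18, 0.29 and 0.26) higher and B3GALT6 (-0.46, -0.53 and -0.27) and CHPF (-0.72, -0.41 and -0.42) lower. Their medians were -0.20, -0.07 and -0.11.

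**Figure D4:**
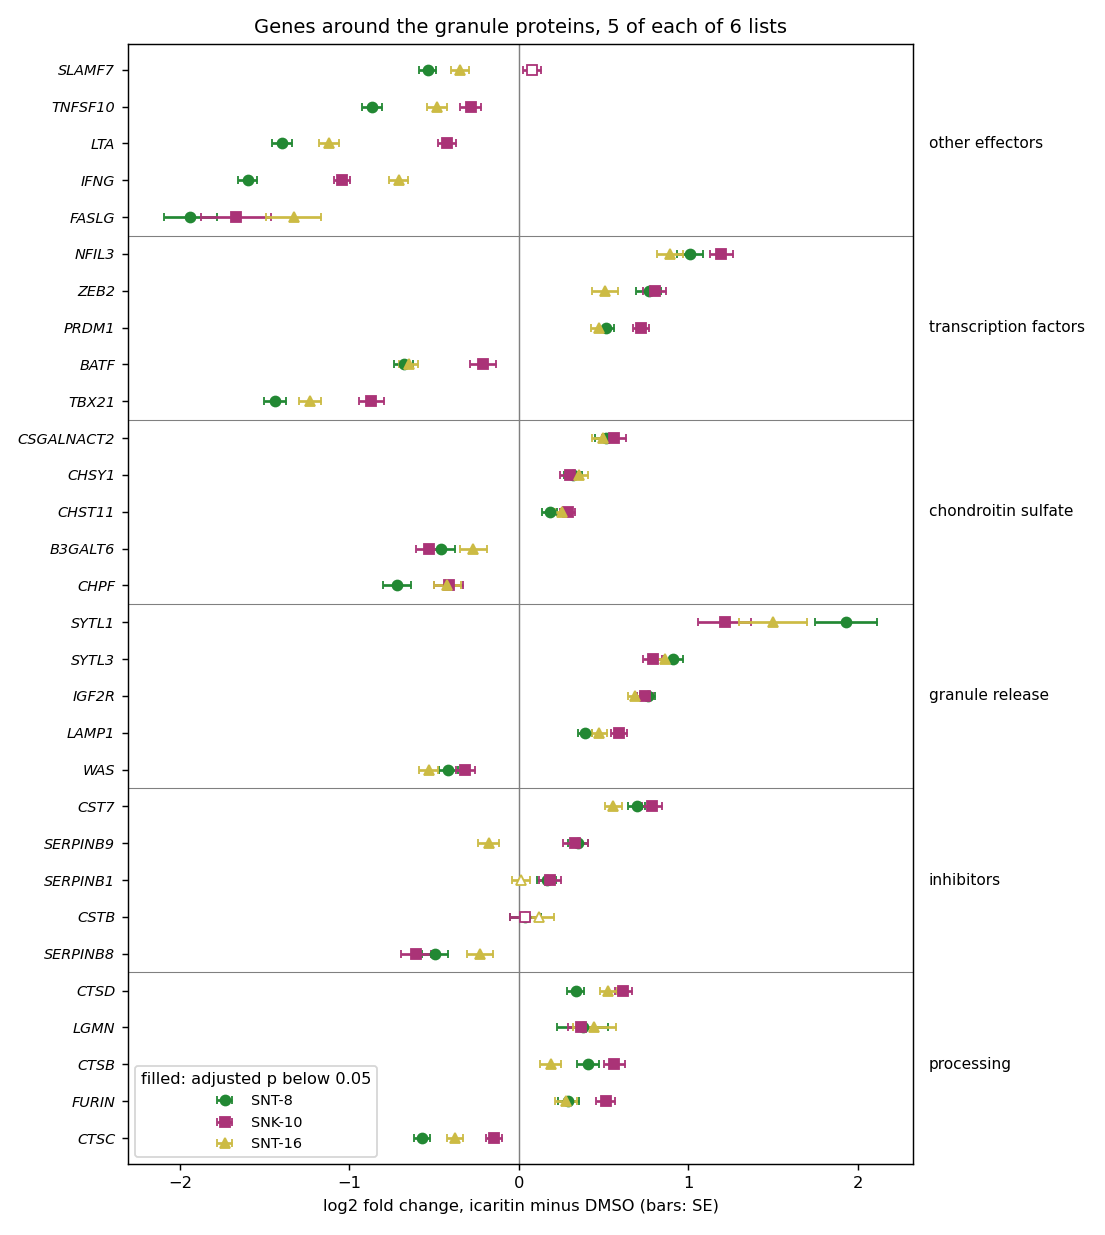
Log2 fold change from DMSO to icaritin (horizontal axis, SE as bars) of 5 genes from each of 6 lists of genes around the granule proteins (vertical axis) in the 3 lines, filled where the adjusted p is below 0.05. SYTL1 reaches 1.93 in SNT-8, and FASLG, IFNG, LTA and TBX21 lie left of 0 in each line.

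Transcription factors of cytotoxic lymphocytes moved in both directions. Of 23 tested, 9 rose and 10 fell in SNT-8, 11 rose and 7 fell in SNK-10, and 6 rose and 11 fell in SNT-16, with medians of -0.01, 0.13 and -0.03. TBX21, which encodes T-bet, an activator of granzyme and perforin genes, fell in each line (-1.44, -0.87 and -1.23 on the log2 scale). BATF fell as well (-0.68, -0.21 and -0.65), although its call in SNK-10 (adjusted p = 0.0252) was lost in 5 of 17 alternatives, among them DESeq2 and without DMSO replicate 1 (-0.203), DMSO replicate 2 (-0.165) and icaritin replicate 1 (-0.132, adjusted p = 0.215). NFIL3 (1.01, 1.19 and 0.89), ZEB2 (0.77, 0.80 and 0.51) and PRDM1 (0.52, 0.72 and 0.47) rose. Of 15 tested other effector molecules, 10, 7 and 9 fell and 1, CCL3, rose in each line, with medians of -0.61, -0.28 and -0.35, beside shares of all genes of 25.0%, 24.0% and 20.8% lower and 24.0%, 24.4% and 21.2% higher. The death ligand FASLG (-1.94, -1.67 and -1.33), IFNG (-1.60, -1.04 and -0.71), LTA (-1.40, -0.42 and -1.12) and TNFSF10 (-0.87, -0.28 and -0.48) fell in each line. FASLG was at most 8.19 FPKM in any group mean, while IFNG reached 269 FPKM in SNK-10 with DMSO.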

How the data were processed

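Total RNA of 18 libraries (3 lines, DMSO or icaritin, 3 libraries a group) was extracted with Trizol and made into libraries with an MGIEasy kit, per the labels' protocols. The submitters' processing notes name Bowtie2 and HISAT; versions, genome build, annotation and quantifier: not given in the sources used here. The authors deposited an expected count (estimated fragments) and an FPKM value for each gene, per the file headers. Genes carry NCBI Gene IDs; of 21662, 21559 were named by ID and 7 by transcript from a RefSeq table of GRCh38.p14, and 96 had no match.

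After rounding to whole numbers, expected counts entered edgeR 4.0.16 (R 4.3.3). The filter filterByExpr (minimum count 10, total 15) left 14396 genes, all 10 members among them, and TMM scaled the libraries. All 18 libraries entered 1 robust quasi-likelihood fit with a mean for each group and 12 residual degrees of freedom. Tests were two-sided, with Benjamini-Hochberg adjustment over all genes of a contrast and a threshold of 0.05. The SE is the absolute log2 fold change over the square root of F. Levels of a gene are the deposited FPKM. The fit was tested on simulated data. Replicate numbers did not pair the libraries (correlations of -0.13 to 0.042 between same-numbered libraries), so none entered the fit. Alternatives were other scalings, filters, the replicate block, fits of the 6 libraries compared, limma 3.58.1 on log2 FPKM with pseudocounts of 1 and 0.1, DESeq2 1.42.0 and each library left out.

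The 10 members and the lists of pathway genes and markers were chosen with earlier results of these data known. Every member is described; from each list, up to 5 genes with the smallest p on the mean of the lines are named. Tested genes among the 2 nearest on each side of a granzyme gene are named too. RAB27A, CCL3, CTSG and other genes outside these rules were named after their values were seen. For GZMB and PRF1, the 5 genes of at least 10 CPM with the largest Pearson r were named. One gene that the rule would name is not reported here.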

Additional observations from a re-analysis of the deposited data

Results flagged for a closer look

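A difference in the icaritin response between the 3 lines was tested with edgeR's quasi-likelihood test (2 degrees of freedom, adjusted over all genes). It passed for 1 of the 10 granule members, where 14.3% of all genes passed, and for 13 of the genes named around them. Those named genes were picked by a small p for icaritin in these same data, so their count cannot be set against that share. Among the members this was SRGN (adjusted p = 0.0419), with log2 fold changes of 0.13 in SNT-8, 0.32 in SNK-10 and 0.39 in SNT-16, and the difference was lost in 14 of 28 alternatives.

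The listed proteases CTSC (adjusted p = 5.28e-05), CTSB (adjusted p = 0.00923) and CTSD (adjusted p = 0.0119) kept their direction in each line and differed in size. CTSC ran from -0.14 in SNK-10 to -0.57 in SNT-8. SERPINB9, the inhibitor of granzyme B, was the gene of the 14 whose called responses had opposite signs (0.35 in SNT-8, 0.33 in SNK-10 and -0.18 in SNT-16; adjusted p = 1.5e-05), although the call in SNT-16 was lost in 3 of 17 alternatives. SERPINB8 had log2 fold changes of -0.49, -0.61 and -0.23 in SNT-8, SNK-10 and SNT-16 (adjusted p of the difference = 0.0486), a difference lost in 18 of 28 alternatives (adjusted p 0.00958 to 0.141).

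TBX21 (adjusted p = 0.000413) and BATF (adjusted p = 0.00117) fell least in SNK-10, and PRDM1 (adjusted p = 0.0089) rose there by 0.72, against 0.52 in SNT-8 and 0.47 in SNT-16. The effector genes TNFSF10 (adjusted p = 2.62e-05), IFNG (adjusted p = 4.33e-10) and LTA (adjusted p = 5.01e-11) fell most in SNT-8. SLAMF7 (adjusted p = 3.15e-07) fell in SNT-8 (-0.54) and SNT-16 (-0.35) and had 0.08 (adjusted p = 0.239) in SNK-10. LMNB1, a lamin that granzymes cleave, fell in SNT-8 (-0.37) and SNT-16 (-0.31) and had -0.08 (adjusted p = 0.175) in SNK-10; its difference had an adjusted p of 0.00447. The differences of CTSD and LMNB1 were lost with limma at both pseudocounts, that of CTSD also by library totals, and that of PRDM1 without DMSO replicate 1 of SNK-10 (adjusted p = 0.0517).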

How the results depend on the processing

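GZMA and PRF1 in each line, GZMB in SNT-8 and SRGN in SNK-10 and SNT-16 kept their direction and their side of the threshold in each of the 17 alternatives run. The number of members called with icaritin in SNK-10 was 5 as reported, 3 with the replicate block and 3 to 6 with 1 library left out; in SNT-16 it was 5 and 3 to 5. Of members with a response that differed between lines there was 1, against 0 with upper quartile scaling, 2 by library totals, 0 with the replicate block and 0 to 2 with 1 library left out. The cause of these shifts was not tested. Replicate numbers are shared between groups without evidence of pairing, and the replicate block ended the calls of GZMB and CTSW in SNK-10, SRGN in SNT-8, NKG7 between SNT-16 and SNT-8, and the differences between lines of SRGN and SERPINB8; it ended no other call given for a named gene.

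Signs turned only for values that were short of the threshold. The log2 fold change of GZMH in SNT-16 was 0.00881 by library totals, 0.00972 and 0.00978 with limma at pseudocounts of 1 and 0.1, and -0.0616 to 0.0523 with 1 library left out. That of CTSW in SNT-8 was 0.000533 by library totals and 0.00129 with limma at either pseudocount. In SNT-16, CTSW was -0.000444 with RLE size factors, -0.0114 without RNR2, -0.017 with no filter, -0.0011 from the 6 libraries alone, -0.000481 with DESeq2 and -0.0273 to 0.0286 with 1 library left out. SRGN between SNT-16 and SNT-8 was 0.00101 by library totals, and SERPINB1 in SNT-16 -0.00477 with no filter and -0.0382 to 0.0417 with 1 library left out. Leaving out 1 library also gave GZMK -0.032 to 0.326 in SNK-10 and -0.372 to 1.69 in SNT-16, GZMM -0.0887 to 0.0352 in SNT-16, GNLY -0.404 to 1.86 in SNT-8 and -0.221 to 0.532 on the mean of the lines, NKG7 -0.0627 to 0.0293 in SNK-10, CMA1 -0.329 to 0.0647 in SNK-10, and CSTB -0.0523 to 0.115 in SNT-8 and -0.0358 to 0.0897 in SNK-10.

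The order of the 10 members by level was the same in TPM as in FPKM in each line. Depth limits GNLY and GZMK in the SNT lines, where 2 to 18 fragments a group cannot show a modest change. The filter of a mean of at least 10 CPM removes GZMK and gives no value for it. Each group has 3 libraries, and fractional counts leave the split of fragments uncertain for GZMB, GZMH and SRGN.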

Other observations

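RNA for proteins that granzymes cleave in a target cell was read from a list of 17 genes. Of these, 16 passed the count filter and GSDME did not, and no protein was measured. Of 16 tested genes of such substrates, 10 fell and 2 rose with icaritin in SNT-8, 6 fell and 4 rose in SNK-10, and 6 fell and 1 rose in SNT-16, with medians of -0.17, -0.08 and -0.07. Of all genes, 25.0%, 24.0% and 20.8% fell and 24.0%, 24.4% and 21.2% rose in these lines. APEX1 (-0.52, -0.50 and -0.41) and SET (-0.42, -0.32 and -0.31), known substrates of granzyme A, fell in each line, while MCL1 rose (0.27, 0.34 and 0.17).

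Genes near the granzymes on the chromosome were read for comparison. SNX18, the second gene from GZMK on the side away from GZMA, rose by 0.98, 0.98 and 0.74 in SNT-8, SNK-10 and SNT-16, where GZMA fell. STXBP6, beside GZMB, rose in SNK-10 (0.57, adjusted p = 0.0061, from 0.9 to 1.32 FPKM; 0.422, adjusted p = 0.089, without icaritin replicate 2) and did not pass in SNT-8 (0.19, adjusted p = 0.0789) or SNT-16 (0.15, adjusted p = 0.225). CTSG, between GZMH and CMA1, had a mean of 0 FPKM in each of the 6 groups. CMA1 rose in SNT-16 (1.32, adjusted p = 0.0294, from 0.393 to 1.04 FPKM), a call lost in 6 of 16 alternatives, among them without DMSO replicate 1 or 2 or icaritin replicate 1 or 3 (1.19 to 1.27), and passed in neither SNT-8 (0.47) nor SNK-10 (-0.17). GPX8, near GZMA, and TPGS1, near GZMM, passed in no line. BSG and CDC34, on both sides of GZMM, had log2 fold changes between -0.01 and 0.05 and passed the threshold in no line.

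Across the 18 libraries, log2 CPM of GZMB followed that of SCN8A (Pearson r = 0.992), IFIH1 (0.991), CYRIA (0.991), PDLIM1 (0.991) and CPNE4 (0.989) most closely among 9331 genes. For PRF1 the nearest were AAMP (0.981), FUT7 (0.977), MZB1 (0.974), LTB (0.974) and NHP2 (0.972). Within the granule genes, GZMB and GZMA had r = -0.956, GZMB and GZMH 0.931 and GZMA and GNLY 0.891. These values describe the 6 groups, since libraries of a line share most of their differences, and are not tests.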
